A study of Mus musculus with 12 samples.

Results

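The 10 genes described here encode proteins that store, translate and clear maternal mRNA in the oocyte, namely Dazl, Cpeb1, Ybx2, Pabpc1l, Paip1, Eif4e, Eif4e1b, Btg4, Cnot6l and Zfp36l2. They were chosen by gene symbol for these roles and are 10 of the 24255 genes of the expression table. A growing oocyte makes more mRNA than it translates at once and keeps much of it dormant, with a short poly(A) tail and bound by RNA-binding proteins. Transcription stops before meiosis resumes, so that protein synthesis in the maturing oocyte is set by which stored mRNAs are polyadenylated and bound by cap-binding and poly(A)-binding factors. The same mRNAs are later deadenylated and degraded, which clears the maternal supply before the embryo relies on its own genome.

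RNA-Seq was done on 12 libraries, each made from 20 pooled oocytes at the germinal vesicle (GV) stage, which precedes the first meiotic division. The C57BL/6 females were 3 weeks old and had received 5 IU of PMSG, a gonadotropin that drives follicle growth, 46 h earlier. The groups, with 3 libraries each, differ in Dpagt1, which encodes the enzyme that starts the lipid-linked precursor of protein N-glycans. WT oocytes came from wild-type females, and MUT oocytes from females with the D166G missense allele of Dpagt1, found after ENU mutagenesis and present in all their cells. GcKO females (Dpagt1F/F Gdf9CRE/+) carry floxed alleles and Cre recombinase driven by Gdf9 sequences, which acts in oocytes of primordial follicles and of all later stages. AmcKO females (Dpagt1F/F Amhr2CRE/+) carry the same floxed alleles and Cre driven by Amhr2 sequences, so that the deletion is aimed at granulosa cells. GcKO and AmcKO thus share the floxed alleles, and floxed females without Cre were not analysed here. No label says that the libraries of a group came from separate females, so p-values measure only the spread between these libraries, which may be technical.

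Values are FPKM, a relative level per transcript length, as the authors deposited them after normalizing the libraries with Cuffnorm, and are given below for replicates 4, 5 and 6 of WT and AmcKO and for replicates 1, 2 and 3 of MUT and GcKO, in this order. Because the label numbers divide WT and AmcKO from MUT and GcKO, a batch that followed them cannot be told apart from the genotype in MUT or GcKO against WT or AmcKO. Dpagt1 was listed at 0 in the WT and AmcKO libraries, at 0.878, 0.408 and 0.985 FPKM in MUT, and at 0, 0.366 and 0 FPKM in GcKO. The targeted gene, being at 0 in WT, therefore does not check the knockout labels.

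The WT libraries stood apart from the MUT and GcKO libraries as a whole, with AmcKO between them in FPKM sums. In genes above 0, AmcKO lay above WT and below MUT but overlapped GcKO. FPKM values summed to between 1167362 and 1226005 in WT, 589617 and 611597 in MUT, 482314 and 684212 in GcKO, and 883256 and 1107925 in AmcKO. Genes above 0 numbered 9359 to 9622 per WT library, 11208 to 11467 per MUT library, 10733 to 11608 per GcKO library and 10399 to 10921 per AmcKO library. The 10 most abundant genes of each library held 22.5 to 23.1% of its sum in WT and 21.8 to 23.1% in AmcKO, against 17.0 to 17.5% in MUT and 15.6 to 16.8% in GcKO. The value of 1 fragment, estimated from the steps between low values relative to MUT replicate 2, was 2.28 to 2.66 in WT and at most 1.5 in any other group, so that low transcripts were less precise in WT. The results for the 10 genes are therefore also given after scaling the libraries in other ways. FPKM values are relative, and the amount of RNA in 1 oocyte was not measured.

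All 11 oocyte markers examined were present, led by Ooep at up to 7181 FPKM, and limma called 4 of them lower in MUT than in WT (11.3% of all genes tested) and 3 lower in GcKO (11.4%), with 0 higher in both. These calls depended on the scaling, described below, as the same-sum scaling gave 1 lower and 4 higher in MUT (2.23% and 41.3% of all genes) and 1 lower and 6 higher in GcKO (2.14% and 42.4%). With quantile normalization these were 1 lower and 2 higher in MUT (6.34% and 6.87% of all genes) and 0 lower and 4 higher in GcKO (5.88% and 6.26%). Their summed level was 15804 to 17599 FPKM per WT library, 8639 to 9865 FPKM per MUT library, 7817 to 10885 FPKM per GcKO library and 11536 to 13098 FPKM per AmcKO library. Of 11 granulosa and cumulus cell markers, Amh and Foxl2 were listed at 0 in all libraries and the most abundant was Cyp19a1, at up to 20.9 FPKM. The summed level of the 11 was 17.6 to 23.1 FPKM per WT library, 17.0 to 31.4 per MUT library, 14.7 to 29.3 per GcKO library and 11.8 to 22.7 per AmcKO library, and these ranges overlapped. Cyp19a1 alone, at 15.1 to 20.1 FPKM in WT and 8.88 to 13.4 FPKM in MUT, made up most of each WT sum. Without Cyp19a1, the summed level as deposited was lower in every WT and AmcKO library than in any MUT or GcKO library. Of the 11, 7 were tested, and 3 of these were called higher in MUT by limma, beside 9.46% of all genes. They were Inha, Gja1 and Hsd17b1, which were listed at 0 in every WT library. Hsd17b1 was tested only because MUT libraries reached 1 FPKM, the lowest value for a test. In GcKO, 0 of the 7 were called higher as deposited, beside 8.71% of all genes (1 at an unadjusted p under 0.05, as were 1963 of 11233 genes), and 4 under the same-sum scaling, beside 42.4% of all genes. Of 6 theca and stromal markers, 4 were listed at 0 in all libraries and the sum was at most 0.813 FPKM, all of it Star in the library where it was highest. Of 5 blood and immune markers, Hbb-bs, Ptprc and Lyz2 were listed at 0 in all libraries, Cd68 was at most 2.86 FPKM, and the sum was at most 2.91 FPKM. The part of other cells in the results below was not tested, and in pooled oocytes fewer cells of a type and less RNA per cell cannot be told apart.

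Differences were tested with limma, two-sided, on log2(FPKM + 1), on which changes of scarce transcripts come out too small, for the 11233 genes that reached 1 FPKM in at least 1 library, and a transcript was called at an adjusted p under 0.05. All 10 genes passed this filter, Zfp36l2 only through WT replicate 6. In MUT against WT oocytes, 4 of the 10 were called lower, where 11.3% of all genes tested were lower, and 2 were called higher, against 9.46% of all genes. Paip1, Btg4, Eif4e and Dazl were the 4 lower transcripts, and Eif4e1b and Cnot6l the higher ones, of which 0 were called without WT replicate 4, MUT replicate 1 or MUT replicate 3 and 1 without any other single library. In GcKO against WT oocytes, the same 4 were called lower (11.4% of all genes) and 4 were called higher (8.71% of all genes), namely Eif4e1b, Ybx2, Cnot6l and Cpeb1, of which 1 was called without WT replicate 4 or GcKO replicate 1. The median log2 fold change of the 10 was 0.35 in MUT and 0.41 in GcKO, against 0.12 over all genes in both. The 4 lower transcripts are the 4 most abundant of the 10 in every group. Both comparisons share the WT libraries, so their similarity is not independent evidence.

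**Figure D1:**
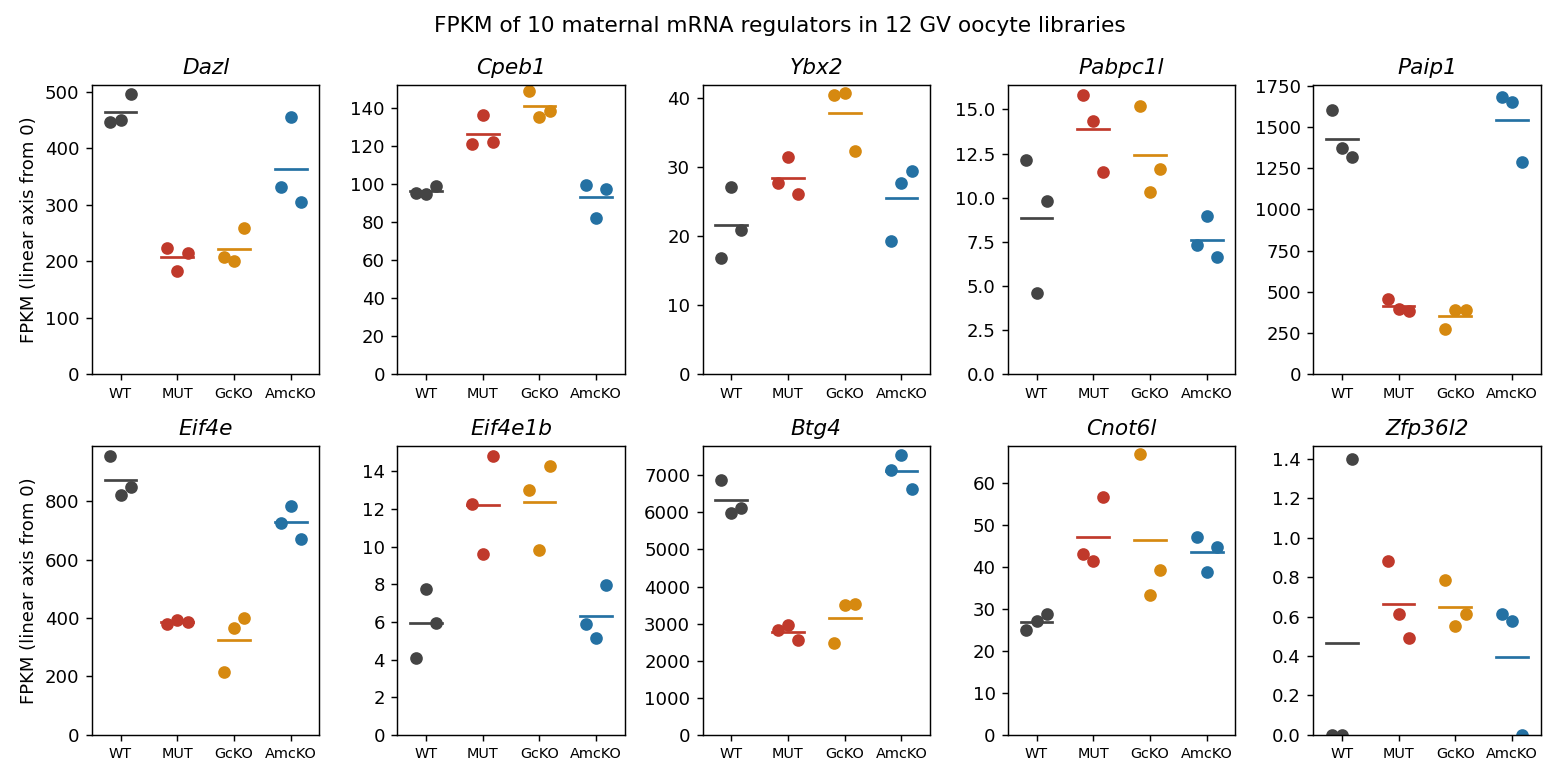
FPKM (vertical axes, linear from 0) of the 10 transcripts in each library as points, with the group mean as a line, for 3 libraries each of WT, MUT, GcKO and AmcKO. Dazl, Paip1, Eif4e and Btg4 lay lower, as deposited, in every MUT and GcKO library than in any WT or AmcKO library, and the sign of the log2 fold change turned under other scalings for Btg4 against WT (0.03 in MUT with quantile normalization, and 0.20 and 0.02 in GcKO with quantile normalization and the same-sum scaling) and for Dazl in GcKO against AmcKO (0.04 with the same-sum scaling).

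Among the storage and activation factors, Dazl encodes a germ cell RNA-binding protein that binds 3′ UTRs and promotes translation of stored mRNAs as the oocyte matures. Dazl was at 446, 451 and 497 FPKM in WT, 224, 183 and 214 FPKM in MUT, 208, 199.96 and 259 FPKM in GcKO, and 332, 455 and 305 FPKM in AmcKO. All MUT and GcKO values lay below all WT and AmcKO values, and the AmcKO values overlapped those of WT. The log2 fold change was -1.17 in MUT (standard error 0.17, limma adjusted p = 0.000419) and -1.07 in GcKO (adjusted p = 0.000748). Each fit with 1 library left out still called it, at -1.23 to -1.08 for MUT and -1.18 to -0.99 for GcKO. It was not called with the same-sum scaling (-0.17 in MUT and -0.03 in GcKO) or with quantile normalization (-0.41 and -0.19).

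Cpeb1 encodes the protein that binds the cytoplasmic polyadenylation element, holding mRNAs dormant in GV oocytes and directing their polyadenylation once meiosis resumes. It was at 95.5, 94.9 and 99.1 FPKM in WT, 121, 136 and 122 FPKM in MUT, 149, 135 and 138 FPKM in GcKO, and 99.3, 82.4 and 97.4 FPKM in AmcKO. Values were high in every MUT and GcKO library, while WT and AmcKO overlapped. Against WT, MUT had a difference of 0.38 (standard error 0.14), which was not called (limma adjusted p = 0.0608) as deposited but was after quantile normalization (0.89, adjusted p = 0.0044) and with equal library sums (1.37). In GcKO it was 0.54 (adjusted p = 0.0127) and was called with any 1 library left out, between 0.50 and 0.57.

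Ybx2 encodes a germ cell Y-box protein that packages and stabilizes stored mRNA. It was at 16.8, 27.2 and 20.9 FPKM in WT, 27.7, 31.5 and 26.2 FPKM in MUT, 40.5, 40.7 and 32.4 FPKM in GcKO, and 19.3, 27.7 and 29.4 FPKM in AmcKO. The GcKO libraries were the highest of all 12, and the other groups overlapped each other. On the log2 scale GcKO was higher by 0.80 (standard error 0.22, limma adjusted p = 0.0187), a call that was lost without WT replicate 4 (adjusted p = 0.0727), GcKO replicate 1 or GcKO replicate 2. In MUT it was 0.40, with a 95% confidence interval of -0.07 to 0.87 (adjusted p = 0.214), and 0.24 without WT replicate 4.

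Paip1 encodes a protein that binds the poly(A)-binding protein and the initiation machinery and promotes translation. Its transcript was at 1604, 1371 and 1317 FPKM in WT, 456, 393 and 385 FPKM in MUT, 274, 389 and 387 FPKM in GcKO, and 1686, 1655 and 1288 FPKM in AmcKO. MUT and GcKO libraries were far below every WT and AmcKO library, while WT and AmcKO overlapped. With a log2 fold change of -1.80 in MUT (standard error 0.17, limma adjusted p = 6.16e-05) and -2.04 in GcKO (adjusted p = 2.32e-05), Paip1 had the largest change of the 10 in both as deposited, and the lowest log2 fold change of the 10 under each scaling, though Cnot6l (0.97) in MUT and Cpeb1 (1.13) in GcKO with quantile normalization, and Eif4e1b (1.82 and 1.88) with the same-sum scaling, had larger changes upwards. As deposited, 0.970% and 0.418% of all genes tested had a log2 fold change as low. It was called in each fit with 1 library left out, at -1.87 to -1.71 for MUT and -2.13 to -1.87 for GcKO.

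Pabpc1l encodes the poly(A)-binding protein of oocytes and early embryos. It was at 12.1, 4.57 and 9.81 FPKM in WT, 15.8, 14.4 and 11.5 FPKM in MUT, 15.2, 10.3 and 11.6 FPKM in GcKO, and 7.31, 8.94 and 6.62 FPKM in AmcKO. The MUT and GcKO ranges overlapped that of WT, in which replicate 5 was the lowest of all libraries. These gave a log2 fold change of 0.68 for MUT (95% confidence interval 0.03 to 1.32, limma adjusted p = 0.127) and 0.52 for GcKO (-0.12 to 1.16, adjusted p = 0.245). Without WT replicate 5 they were 0.31 and 0.15. Pabpc1, the somatic poly(A)-binding protein gene, was listed at 1.22 FPKM or less in every library.

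Eif4e encodes the cap-binding protein that recruits mRNAs to the ribosome, and Eif4e1b an oocyte relative of it that is restricted to the germ line and the early embryo. Eif4e was at 953, 819.6 and 847 FPKM in WT, 378, 393 and 388 FPKM in MUT, 215, 365 and 399 FPKM in GcKO, and 727, 785 and 672 FPKM in AmcKO. Its values were low in all MUT and GcKO libraries, and each AmcKO value was below each WT value. The log2 fold change was -1.17 in MUT (standard error 0.19, limma adjusted p = 0.00102) and -1.46 in GcKO (adjusted p = 0.000234), and in GcKO it was -1.19 without GcKO replicate 1, the lowest library. The MUT call was lost with the same-sum scaling (-0.18, adjusted p = 0.234) and with quantile normalization (-0.30, 0.0967), and the GcKO change, still called, was -0.43 and -0.53. Eif4e1b was at 4.10, 7.75 and 5.95 FPKM in WT, 12.3, 9.61 and 14.8 FPKM in MUT, 13.04, 9.85 and 14.3 FPKM in GcKO, and 5.90, 5.15 and 7.98 FPKM in AmcKO. It moved the other way from Eif4e, being higher in every MUT and GcKO library than in any WT or AmcKO library. The log2 fold change was 0.95 in MUT (standard error 0.27, limma adjusted p = 0.0238) and 0.97 in GcKO (adjusted p = 0.0211). These calls rest on an estimated 4.7 to 36.7 fragments a library, and were lost without WT replicate 4, MUT replicate 1 or MUT replicate 3 in MUT (adjusted p up to 0.101) and without WT replicate 4, GcKO replicate 1 or GcKO replicate 3 in GcKO (up to 0.0765).

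Of the clearance factors, Btg4 encodes the adaptor that brings the CCR4-NOT deadenylase to maternal mRNAs during maturation. It was at 6876, 5972 and 6127 FPKM in WT, 2819, 2952 and 2568 FPKM in MUT, 2475, 3495 and 3518 FPKM in GcKO, and 7154, 7545 and 6643 FPKM in AmcKO. It was the most abundant of the 10 in each library, low in all MUT and GcKO libraries, with WT and AmcKO overlapping. The log2 fold change was -1.19 in MUT (standard error 0.16, limma adjusted p = 0.000252) and -1.02 in GcKO (adjusted p = 0.000668), and both were called with any 1 library left out. Counted from the top of the 24255 genes, it held places 29 to 32 in WT, 29 to 31 in MUT and 22 to 30 in GcKO, which overlap, and 19 to 22 in AmcKO, above the others except GcKO, and its direction turned under other scalings (in MUT 0.03 with quantile normalization; in GcKO 0.02 with the same-sum scaling and 0.20 with quantile normalization).

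Cnot6l encodes a catalytic subunit of CCR4-NOT. It was at 24.9, 27.1 and 28.8 FPKM in WT, 43.1, 41.5 and 56.7 FPKM in MUT, 66.8, 33.4 and 39.4 FPKM in GcKO, and 47.2, 38.8 and 44.8 FPKM in AmcKO. The WT libraries were the 3 lowest, and the other 3 groups overlapped. Differences from WT on the log2 scale were 0.77 in MUT (standard error 0.23, limma adjusted p = 0.0298), 0.71 in GcKO (adjusted p = 0.0447) and 0.67 in AmcKO (95% confidence interval 0.18 to 1.17, adjusted p = 0.198, not called). The MUT call was lost with any 1 of the 6 libraries left out (adjusted p up to 0.124, without MUT replicate 3). The GcKO call was lost without WT replicate 4, 5 or 6 and without GcKO replicate 1, where the log2 fold change was 0.42 (adjusted p = 0.184).

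Zfp36l2 encodes a protein that binds AU-rich elements and recruits CCR4-NOT. It was listed at 0, 0 and 1.40 FPKM in WT, 0.883, 0.611 and 0.494 FPKM in MUT, 0.787, 0.552 and 0.612 FPKM in GcKO, and 0.611, 0.577 and 0 FPKM in AmcKO. All groups overlapped, and an estimated 3.7 fragments or fewer lay behind each value; limma called it in 0 of the 6 comparisons, with 0 at an unadjusted p under 0.05.

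The size of the fall in the 4 abundant transcripts depended on how the libraries were scaled. With all libraries brought to an equal sum (the same-sum scaling), the median over all genes went from 0.12 to 0.71 in MUT and from 0.12 to 0.74 in GcKO, and the calls among all genes from 1269 lower and 1063 higher to 251 and 4643 in MUT, and from 1286 and 978 to 240 and 4767 in GcKO. Among the 10 it left 1 lower and 5 higher in MUT, and 2 lower and 5 higher in GcKO. Relative to the shifted median, the log2 fold changes in MUT were -1.51 for Paip1, -0.90 for Btg4, and -0.89 for both Dazl and Eif4e. In GcKO they were -1.75 for Paip1, -1.17 for Eif4e, -0.77 for Dazl and -0.72 for Btg4. On the same relative scale the storage factors Cpeb1 and Ybx2 were at 0.66 and 0.64 in MUT and at 0.83 and 1.05 in GcKO, Eif4e1b at 1.11 and 1.14, and Cnot6l at 1.02 and 0.97. Quantile normalization, which left the median of all genes at 0.05 in MUT and 0.04 in GcKO, gave -0.92 for Paip1 in MUT (limma adjusted p = 0.000509) and -1.10 in GcKO (adjusted p = 0.000273). Dazl was then at -0.41 in MUT (adjusted p = 0.0774) and -0.19 in GcKO (adjusted p = 0.438), and Eif4e at -0.30 (0.0967) and -0.53 (0.00903). Eif4e1b, at 0.81 (0.0594) and 0.83 (0.0555), was no longer called, and Pabpc1l was called higher under the same-sum scaling alone, at 0.86 in MUT and 0.71 in GcKO relative to the median.

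Median-of-ratios scaling changed no call of the 10 and left the medians of all genes at 0.12 in MUT and GcKO against WT. It moved the calls among all genes in MUT from 1269 lower and 1063 higher to 1297 and 1051. In GcKO it added Pan3 to the lower decay genes. Called as deposited and under all other scalings were Paip1, lower, and Cnot6l, higher, in MUT. In GcKO these were Paip1 and Eif4e, lower, and Cnot6l, Cpeb1 and Ybx2, higher. Of all genes tested, 1.97% were lower and 5.08% higher under all scalings in MUT, and 1.80% and 4.58% in GcKO. A place in the order of all genes does not depend on a common scale factor, and Paip1 ranked 125 to 147 from the top among WT libraries, 234 to 269 among MUT, 264 to 305 among GcKO and 98 to 114 among AmcKO libraries. Eif4e ranked 210 to 236 in WT, 265 to 275 in MUT and 284 to 357 in GcKO. Dazl ranked 371 to 388 in WT and 428 to 521 in MUT, but 367 to 468 in GcKO and 366 to 411 in AmcKO, which overlap WT. Cpeb1 moved up, from 1005 to 1021 in WT to 648 to 703 in MUT and 496 to 672 in GcKO. Reference transcripts depended on the scaling too, Rpl19 going from -0.88 (MUT) and -0.78 (GcKO) to 0.11 and 0.25 under the same-sum scaling, and Actb from 0.13 (MUT) and -0.44 (GcKO) to 1.12 and 0.60.

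**Figure D2:**
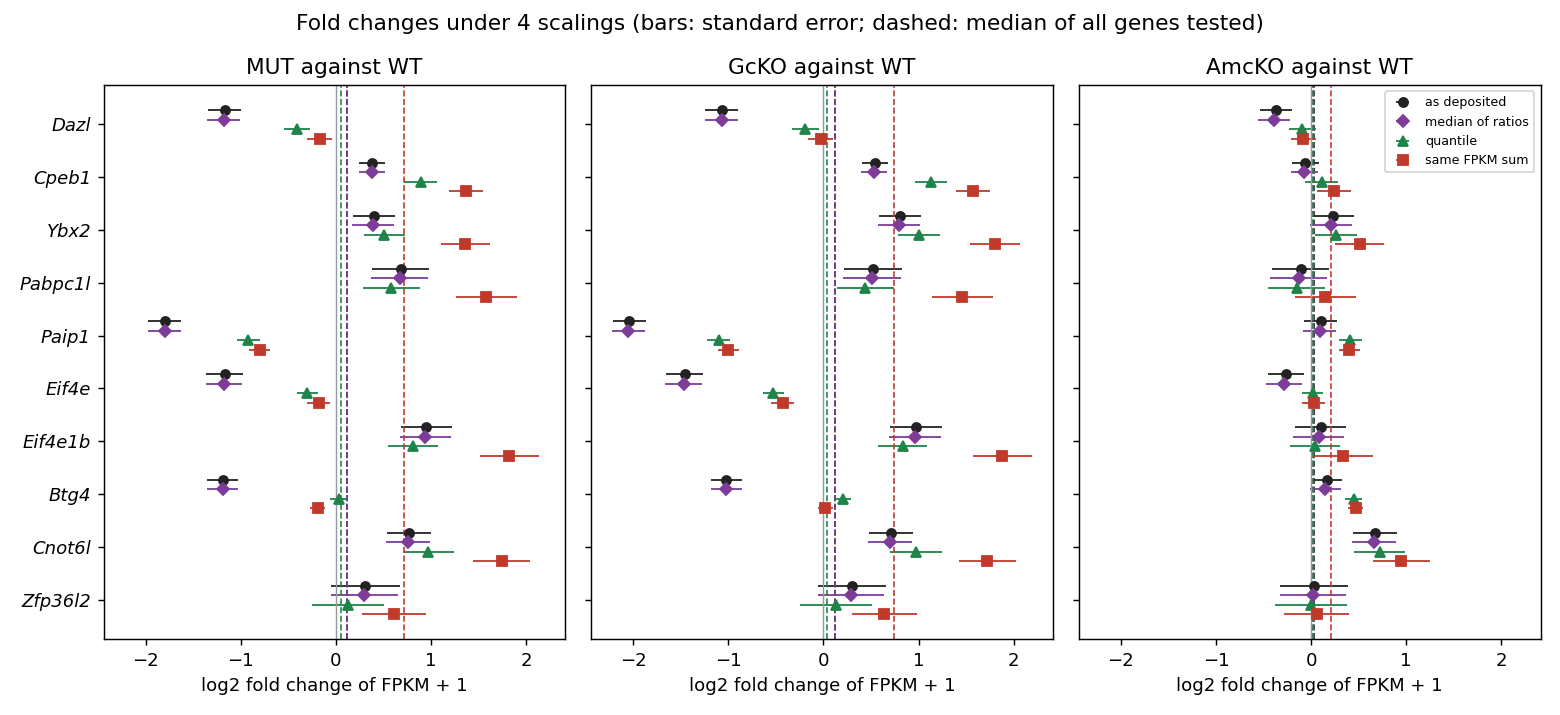
Log2 fold change of FPKM + 1 (horizontal axis) of the 10 transcripts in MUT, GcKO and AmcKO against WT under 4 scalings of the libraries, with the standard error as bars and the median of all genes tested as dashed lines. Paip1 lay below 0 under each scaling in MUT and GcKO, while Btg4 turned to 0.03 in MUT with quantile normalization and, in GcKO, to 0.02 with the same-sum scaling and 0.20 with quantile normalization.

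In AmcKO oocytes, 0 of the 10 were called lower and 0 higher against WT by limma, where 0.116% and 0.0979% of all genes were, and at an unadjusted p under 0.05 there was 1 lower (Dazl) and 1 higher (Cnot6l), near the general share of 854 lower and 900 higher of 11233 genes. The median log2 fold change of the 10 was 0.06, against 0.03 for all genes. The 95% confidence interval of the difference was -0.26 to 0.47 for Paip1, -0.17 to 0.51 for Btg4, -0.68 to 0.16 for Eif4e and -0.74 to -0.01 for Dazl. Under the same-sum scaling, which raised the median of all genes from 0.03 to 0.21, Btg4 was called higher (0.47, limma adjusted p = 0.0238), or 0.26 above that median. A p that misses the threshold does not show that values did not differ.

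The effect of the oocyte deletion was compared directly with that of the whole-body mutation. Between GcKO and MUT oocytes, 0 of the 10 were called lower and 0 higher by limma, against 0.134% and 0.0712% of all genes, and 0 of them had an unadjusted p under 0.05 (741 of all genes did). Of the 10, Ybx2 alone did not overlap, its 3 GcKO values lying above the 3 MUT values (log2 fold change 0.40, 95% confidence interval -0.07 to 0.86, adjusted p = 0.841). Of all genes, 6.42% lay above and 6.87% below in this way, so that 1 of 10 is near the general share. For Paip1 the difference was -0.25 (-0.61 to 0.12), and for Eif4e -0.29 (-0.71 to 0.13).

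Comparisons with AmcKO take no group mean from the WT libraries. The WT libraries still enter the estimate of spread shared by the 12 libraries and the filter for testing, which Zfp36l2 passed only through WT replicate 6. Against AmcKO, Paip1, Btg4, Eif4e and Dazl were called lower in MUT, or 4 of 10 beside 5.07% of all genes. None of the 10 was called higher by limma beside 1.42% of all genes, with 3 higher at an unadjusted p under 0.05, as were 1007 of 11233 genes. The log2 fold changes in MUT against AmcKO were -1.90 for Paip1 (standard error 0.17, limma adjusted p = 5.69e-05), -1.36 for Btg4 (0.16, 0.000356), -0.91 for Eif4e (0.19, 0.013) and -0.80 for Dazl (0.17, 0.013). Dazl was not called without MUT replicate 2 (adjusted p = 0.0694), nor Eif4e without MUT replicate 1 or 3 (up to 0.0515). In the same comparison 3 of the 11 oocyte markers (Zp3, Zp2 and Ooep) were lower as deposited, 1 without any single library but AmcKO replicate 6 (2), and 0 under the same-sum scaling (3 higher) or quantile normalization (2 higher). The granulosa markers Gja1, Inha and Hsd17b1, or 3 of 7, were higher under each of the 4 scalings (1.42% of all genes as deposited), but 1 of them without MUT replicate 1 or 3 or AmcKO replicate 4 or 6, and their part in the change was not tested. In GcKO against AmcKO the same 4 were lower (4.79% of all genes) and Cpeb1 was higher, or 1 of 10 beside 0.668%. Of the oocyte markers, Zp3 was lower as deposited (lost without GcKO replicate 1 or 2 or AmcKO replicate 4), 4 were higher under the same-sum scaling and 2 with quantile normalization. Of the 7 granulosa markers, 0 were called as deposited by limma (2 at an unadjusted p under 0.05) and 3 were higher under the same-sum scaling, where 2463 of 11233 genes were. The log2 fold changes of the 10 that were called were -2.15 for Paip1 (adjusted p = 4.9e-05), -1.20 for Eif4e (0.00327), -1.19 for Btg4 (0.00133), -0.70 for Dazl (0.0296) and 0.60 for Cpeb1 (0.0202). Dazl was not called without GcKO replicate 1 or 2 or AmcKO replicate 4 or 5 (up to 0.109), nor Cpeb1 without GcKO replicate 1 or 2 or AmcKO replicate 5 (up to 0.0716). The same-sum scaling, which raised the median of all genes from 0.05 to 0.53 in MUT and from 0.04 to 0.55 in GcKO against AmcKO, moved the calls among all genes from 570 lower and 159 higher to 165 and 2393 in MUT, and from 538 and 75 to 128 and 2463 in GcKO. Under it, 2 of the 10 were lower and 4 higher in MUT and 3 lower and 4 higher in GcKO, and Dazl turned to 0.04 in GcKO, or -0.50 relative to the median. Called lower against AmcKO as deposited and with both the same-sum scaling and quantile normalization were Paip1 and Btg4 in MUT (1.17% of all genes) and Paip1 and Eif4e in GcKO (0.757%), and Cpeb1 was called higher in GcKO (0.312%).

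Ratios between related transcripts within a library do not depend on a scale factor common to that library. A difference between libraries that varies with abundance would still enter them. Eif4e1b, the scarce partner of Eif4e, rests on an estimated 4.7 to 36.7 fragments a library. Eif4e exceeded Eif4e1b, in FPKM, by 233, 106 and 142 times in WT, 30.8, 40.8 and 26.1 times in MUT, 16.5, 37.1 and 27.9 times in GcKO, and 123, 152 and 84.2 times in AmcKO. All MUT and GcKO ratios lay outside the WT range, and AmcKO overlapped it. As a log2 ratio, Eif4e1b over Eif4e was 2.25 higher in MUT and 2.56 higher in GcKO than in WT, or 4.74 and 5.90 times, against 0.38 in AmcKO. The log2 ratio of Dazl to Cpeb1, FPKM of both, was 2.22, 2.25 and 2.33 in WT, 0.89, 0.43 and 0.81 in MUT, 0.48, 0.56 and 0.91 in GcKO, and 1.74, 2.47 and 1.65 in AmcKO. It was lower in all MUT and GcKO libraries than in any WT library, with mean differences of -1.56 and -1.61, and overlapped WT in AmcKO (-0.31). For each of these 4 non-overlapping differences an exact permutation test, two-sided, gave p = 0.1, the smallest that 3 against 3 libraries allow, and 0.24 adjusted over 12 such tests. The ratio of Ybx2 to the related Ybx1 was higher in GcKO than in WT by 0.54 on the log2 scale without overlap (exact p = 0.1, adjusted 0.24), and overlapped WT in MUT (-0.24) and AmcKO (0.25). The ratio of Cnot6l to its paralog Cnot6 overlapped WT in all 3 other groups.

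**Figure D3:**
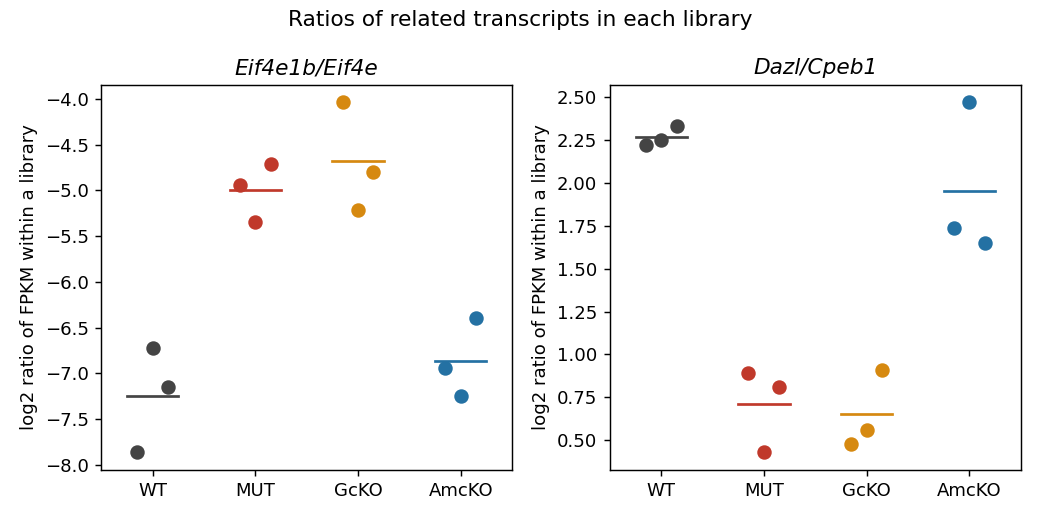
Log2 ratio of Eif4e1b to Eif4e and of Dazl to Cpeb1 FPKM (vertical axes) in each library as points, with the group mean as a line. Eif4e1b to Eif4e lay between -7.86 and -6.72 in WT and between -5.35 and -4.04 in MUT and GcKO, and Dazl to Cpeb1 between 2.22 and 2.33 in WT and between 0.43 and 0.91 in MUT and GcKO.

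Other genes of the same pathways, listed by role, changed in both directions. Of 29 other storage and cytoplasmic polyadenylation genes, 26 were tested, and 1 was lower and 5 higher in MUT (median log2 fold change 0.36) and 1 lower and 7 higher in GcKO (median 0.59). Over all genes the median was 0.12 in both, with 11.3% lower and 9.46% higher in MUT and 11.4% and 8.71% in GcKO. The lower transcript in both was Zar1l, a relative of the maternal-effect gene Zar1, at 1415, 1279 and 1270 FPKM in WT, 594, 592 and 514 FPKM in MUT, and 499, 673 and 811 FPKM in GcKO. Its log2 fold change was -1.22 in MUT and -1.02 in GcKO, and 0.01 in GcKO under the same-sum scaling, which called neither (-0.23 in MUT), while quantile normalization kept the MUT call alone (-0.35 and -0.08). Eif4enif1, which encodes the 4E-T protein that binds eIF4E and keeps mRNAs silent, was at 18.7, 22.7 and 22.2 FPKM in WT, 42.1, 39.4 and 46.5 FPKM in MUT, and 61.4, 40.03 and 31.8 FPKM in GcKO. It rose by 0.98 in MUT and 0.99 in GcKO on the log2 scale, and was called under the same-sum scaling and quantile normalization too. Papd4, which encodes a cytoplasmic poly(A) polymerase, stood at 1.13 in MUT (0.68 to 1.40 with 1 library left out), a call lost when WT replicate 4 (limma adjusted p = 0.158) or any 1 MUT library was left out, and lost with quantile normalization (0.93, 0.111). Caprin1, which encodes an RNA granule protein, stood at 0.96 in MUT, kept only without WT replicate 5 (adjusted p up to 0.115), and at 1.03 in GcKO, a call lost when WT replicate 4 or 6 or GcKO replicate 1 was left out (up to 0.113), and both calls were lost with quantile normalization (0.71 and 0.79). The number of higher transcripts in MUT was 1 without WT replicate 4 or MUT replicate 2 or 3, and 3 without WT replicate 6 or MUT replicate 1. In GcKO it was 1 without WT replicate 4, 2 without GcKO replicate 1, 3 without WT replicate 6, and 4 without WT replicate 5 or GcKO replicate 2.

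All 17 other cap-binding and poly(A)-binding genes were tested, of which 2 were lower and 7 higher in MUT (median 0.57) and 3 lower and 5 higher in GcKO (median 0.62). Beside these stand 11.3% of all genes lower and 9.46% higher in MUT, near the share of lower ones here, and 11.4% and 8.71% in GcKO. Eif4ebp1, which encodes the 4E-BP1 inhibitor of eIF4E, was at 2.19, 0 and 4.23 FPKM in WT, 16.3, 16.3 and 24.1 FPKM in MUT, 2.71, 4.25 and 4.26 FPKM in GcKO, and 0, 1.35 and 1.16 FPKM in AmcKO. The 3 MUT libraries were the highest of the 12, with a log2 fold change of 2.94 in MUT (standard error 0.51, limma adjusted p = 0.00139), called with any 1 library left out. In GcKO it was 0.87 (adjusted p = 0.254), and GcKO against MUT gave -2.06 (adjusted p = 0.164). Eif4h, an activator of the cap-bound helicase, rose by 2.56 in MUT, and by 1.89 in GcKO except without WT replicate 6 or GcKO replicate 1 (adjusted p up to 0.0821). Eif4b, another helicase cofactor, had 1.17 in GcKO, a call lost when WT replicate 4 or GcKO replicate 1 or 2 was left out (up to 0.0915) and with quantile normalization (0.96, 0.0623). The falls of the helicase gene Eif4a2 (-0.87 in MUT and -0.81 in GcKO) and of Paip2 (-0.61 in MUT), an inhibitor of the poly(A)-binding protein, turned positive under the same-sum scaling (0.11, 0.22 and 0.39) and were not called with quantile normalization (-0.43, -0.33 and 0.29). The call of Eif4a2 was lost when MUT replicate 2 was left out in MUT (0.0502) and when WT replicate 4 or GcKO replicate 1 or 2 was left out in GcKO (up to 0.0857), and that of Paip2 in MUT without WT replicate 4 or 5 or any 1 MUT library (up to 0.0957). Eif4e2, a cap-binding relative of Eif4e, had -0.97 in GcKO, called in 2 of 6 fits with 1 library left out. The call was lost when WT replicate 4 or 6 or GcKO replicate 1 or 2 was left out (up to 0.0845). Eif4e2 was at 0.00 under the same-sum scaling, and quantile normalization kept the call. The number of lower transcripts in this list was 0 without MUT replicate 2 and 1 without WT replicate 4 or MUT replicate 1 or 3 in MUT, and 0 without WT replicate 4 and 1 without GcKO replicate 1 or 2 in GcKO. That of higher ones was 4 without WT replicate 4 or MUT replicate 3 in MUT, and 1 without GcKO replicate 1 and 3 without WT replicate 4 or GcKO replicate 2 in GcKO.

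Of 33 other deadenylation and decay genes, 29 were tested, with 3 lower and 7 higher in MUT (median 0.42) and 2 lower and 7 higher in GcKO (median 0.50). All genes gave 11.3% lower, near the share in this list, and 9.46% higher in MUT, and 11.4% and 8.71% in GcKO. The decapping scaffold gene Edc4 was at 0.349, 2.37 and 1.36 FPKM in WT, 5.13, 6.80 and 5.55 FPKM in MUT, and 10.6, 6.68 and 5.56 FPKM in GcKO. Edc4 rose by 1.62 in MUT and 1.92 in GcKO on the log2 scale, and was called with any 1 library left out and under the same-sum scaling and quantile normalization. Rqcd1, a CCR4-NOT subunit gene, rose by 1.92 in MUT, and Ythdf1, which encodes a reader of m6A in mRNA, rose by 1.40 in GcKO. The falls of Upf1, the helicase gene of nonsense-mediated decay (-0.75 in MUT and -0.73 in GcKO), of Pan3 (-0.64 in MUT) and of Cnot7 (-0.89 in GcKO), both of deadenylase complexes, turned positive under the same-sum scaling (0.22, 0.28, 0.35 and 0.15) and were not called with quantile normalization (-0.57, -0.51, -0.17 and 0.07). The call of Upf1 was lost when WT replicate 5 or MUT replicate 1 or 3 was left out in MUT (limma adjusted p up to 0.0914) and when WT replicate 5 or GcKO replicate 1 or 3 was left out in GcKO (up to 0.0964), and that of Pan3 when WT replicate 4 or MUT replicate 2 or 3 was left out (up to 0.0787). The number of lower transcripts was 1 without WT replicate 4 or any 1 MUT library in MUT and 1 without WT replicate 5 or GcKO replicate 1 in GcKO, where that of higher ones was 4 without GcKO replicate 1.

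Of 11 mRNAs known to be recruited for translation as oocytes mature, Btg4 among them, 4 were lower and 2 higher in MUT (median -0.10) and 4 lower and 1 higher in GcKO (median -0.35). For all genes it was 11.3% and 9.46% in MUT, and 11.4% and 8.71% in GcKO, where the share of higher ones was near that of this list. With quantile normalization, 0 were lower and 3 higher in MUT (median 0.57), and 0 lower and 2 higher in GcKO (median 0.24). All genes were then 6.34% lower and 6.87% higher in MUT, and 5.88% and 6.26% in GcKO. Slbp, which encodes the stem-loop binding protein of histone mRNA, was at 4239, 3524 and 3254 FPKM in WT, 1586, 1641 and 1660 FPKM in MUT, and 971, 1684 and 1577 FPKM in GcKO. It fell by 1.16 on the log2 scale in MUT, where it was at 0.09 after quantile normalization and not called under the same-sum scaling (-0.17), and by 1.41 in GcKO, where it was at -0.27 and not called after quantile normalization (limma adjusted p = 0.258). The decapping cofactor gene Dcp1a, which the decay list also holds with Dcp2 and Cnot7, was at 19.0, 16.2 and 18.2 FPKM in WT, 42.0, 44.2 and 47.0 FPKM in MUT, and 46.4, 40.7 and 28.7 FPKM in GcKO. Dcp1a rose by 1.27 in MUT and 1.05 in GcKO, called with any 1 library left out and under the same-sum scaling and quantile normalization. Plat, which encodes tissue plasminogen activator, stood at 0.64 in MUT, called in 1 of 6 fits with 1 library left out (not without WT replicate 5 or 6 or any 1 MUT library, limma adjusted p up to 0.112). The number of higher transcripts in MUT was 1 without each of these libraries, and in GcKO it was 2 without GcKO replicate 3.

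Scaled to the same sum, 0 of the storage, cap-binding and decay genes were lower in MUT and 18, 12 and 19 higher, with medians of 1.21, 1.30 and 1.12 beside the shifted median of 0.71, where 2.23% of all genes were lower and 41.3% higher. For the recruited mRNAs it was 0 lower and 7 higher (median 0.90). In GcKO these were 0 lower and 22, 12 and 19 higher, with medians of 1.39, 1.26 and 1.32 beside 0.74 (2.14% of all genes lower and 42.4% higher), and 1 lower and 6 higher among the recruited mRNAs (median 0.69). With quantile normalization, 1 storage, 0 cap-binding and 0 decay genes were lower in MUT and 5, 5 and 6 higher (6.34% and 6.87% of all genes). In GcKO they were 0, 1 and 0 lower and 6, 4 and 7 higher (5.88% and 6.26% of all genes). In AmcKO against WT, limma called 0 storage, 0 decay and 0 recruited transcripts. At an unadjusted p under 0.05 there were 4 of 26, 5 of 29 and 2 of 11, in total near the general share of 1754 of 11233 genes. By direction these lists had 0, 1 and 1 lower and 4, 4 and 1 higher, beside 854 lower and 900 higher of all genes. Among the 17 cap-binding and poly(A)-binding genes, 6 were higher and 0 lower at that threshold, where 900 of 11233 genes were higher. Of these Pabpn1l alone, a poly(A)-binding protein gene of the oocyte, was called (1.59, limma adjusted p = 0.0423). With 1 library left out, the call was kept only without AmcKO replicate 5. It was lost with quantile normalization (1.67, limma adjusted p = 0.0537). Between GcKO and MUT, 0 transcripts of the 4 lists were called, with 0 storage, 1 cap-binding, 1 decay and 0 recruited at an unadjusted p under 0.05, as were 741 of 11233 genes.

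Across the 12 libraries, the 4 lower transcripts moved closely together, with Pearson correlations of log2(FPKM + 1) between 0.88 and 0.97 over their 6 pairs. Paip1 and Cpeb1 were at -0.96, and Paip1 and Eif4e1b at -0.90. Among 3421 genes with a mean of at least 10 FPKM, the one most like Paip1 was Canx (r = 0.994), which encodes calnexin, a lectin chaperone of the endoplasmic reticulum. Canx was at 400.4, 382 and 338 FPKM in WT, 158, 141 and 129 FPKM in MUT, 95.6, 117 and 136 FPKM in GcKO, and 468, 450.1 and 402 FPKM in AmcKO, so that its MUT and GcKO libraries were also below all others. The nearest genes were Ints12 for Eif4e (0.993), Gm813 for Dazl (0.991), Fam84a for Btg4 (0.988), Hiatl1 for Cnot6l (0.971), Tubg2 for Cpeb1 (0.938), Map2k1 for Eif4e1b (0.925), Klhl8 for Ybx2 (0.881), Gcnt4 for Pabpc1l (0.860) and Golph3 for Zfp36l2 (0.796). These values describe the same 12 libraries in 4 groups, whose scaling all genes share, and carry no test.

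In GRCm38 the genes lie at chr17:50279395-50293636 (Dazl, reverse strand), chr7:81347026-81455465 (Cpeb1, reverse), chr11:69935796-69941605 (Ybx2, forward), chr2:164025450-164050538 (Pabpc1l, forward), chr13:119428601-119458218 (Paip1, forward), chr3:138526179-138559696 (Eif4e, forward), chr13:54783998-54788459 (Eif4e1b, forward), chr9:51060901-51119875 (Btg4, forward), chr5:96070333-96164171 (Cnot6l, reverse) and chr17:84183931-84187947 (Zfp36l2, reverse). The span of Btg4 overlaps Layn, 4833427G06Rik, Mir34b and Mir34c on the opposite strand, and that of Eif4e overlaps Mir1956 on the same strand, all listed at 0 in the 12 libraries. Rpl7a-ps9, a processed pseudogene in Cpeb1, and the antisense gene AC132455.1 at Zfp36l2 also lie on the opposite strand, and no value of theirs was found by symbol. The library kit is not stated to keep strand, so that reads from either strand cannot be told apart.

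The 3′ ends of the annotated transcripts were searched for the elements through which CPEB1, Pumilio and ZFP36 family proteins bind mRNA. In the last 300 bases, the cytoplasmic polyadenylation element (TTTTAT or TTTTAAT, sense strand) occurred in 4 of the 10, Cpeb1, Ybx2, Btg4 and Paip1, against 39.0% of 7717 genes tested with a 3′ UTR of at least 300 bases. The polyadenylation hexamer (AATAAA or ATTAAA) occurred in 9 of 10, not in Ybx2, against 86.5%. A Pumilio element (TGTANATA) occurred in Paip1 alone of the 10, against 10.5%, and the AU-rich heptamer TATTTAT in 0 of the 10, against 10.4%. In the last 100 bases the polyadenylation element was found in Ybx2 and Btg4, against 20.8% of genes, and Btg4 held 3 in the longer window. The hexamer was found there in 8 of 10, not in Ybx2 or Btg4, against 81.6%. The only hexamer of Btg4 in the longer window started 291 bases before the end, upstream of its polyadenylation elements. For the 4 transcripts with the element, 30 bases around the copy nearest the 3′ end are shown to compare the bases flanking it, in the sense of the mRNA written as DNA with the element in capitals, which start 249 (Cpeb1), 62 (Ybx2), 67 (Btg4) and 231 (Paip1) bases before the end. A match is a description, not a site of binding or a cause.
Cpeb1: ttgacttttctTTTTAATttaacgattact
Ybx2: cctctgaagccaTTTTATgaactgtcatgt
Btg4: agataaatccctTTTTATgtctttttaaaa
Paip1: tttaagtaatgtTTTTATctaatgtcaaat

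The promoters of the 4 lower transcripts are shown because these moved together, each as the 250 bases before the RefSeq start in GRCm38.p6, 5′ to 3′ on the strand of the gene, with CCAAT boxes (CCAAT or ATTGG) and GC boxes (GGGCGG or CCGCCC) in capitals. An entry was found for 8 of the 10 genes, not for Zfp36l2 and Eif4e1b. Paip1, Eif4e and Ybx2 had 2 entries and Cnot6l had 3, and a single window of each was searched. The windows are chr13:119428652-119428901 (Paip1, forward strand), chr3:138525941-138526190 (Eif4e, forward), chr9:51115751-51116000 (Btg4, forward) and chr17:50293621-50293870 (Dazl, reverse). Paip1 held 4 GC boxes, 18 to 99 bases before the start, in a window of 82.8% G and C, against 32.7% of 32851 promoters with a GC box. Btg4 and Dazl each held 1 CCAAT box, 50 and 47 bases before the start, against 33.8% of promoters, and their windows were 38.0% and 67.2% G and C. Eif4e held neither, at 54.8% G and C. The TATA box (TATAAA or TTTATA, 12.4% of promoters) occurred in Cpeb1 alone of the 8, and the element of the oocyte factor NOBOX (TAATTG or its other strand CAATTA, and the palindrome TAATTA, 11.3%) in 0 of the 8. The 4 windows thus shared no one motif of those searched, which says only that these letters are not in them.
Paip1: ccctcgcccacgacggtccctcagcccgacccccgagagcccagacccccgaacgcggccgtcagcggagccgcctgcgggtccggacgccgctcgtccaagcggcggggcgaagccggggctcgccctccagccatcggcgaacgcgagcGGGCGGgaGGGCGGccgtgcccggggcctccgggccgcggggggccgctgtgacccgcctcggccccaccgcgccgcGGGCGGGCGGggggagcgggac
Eif4e: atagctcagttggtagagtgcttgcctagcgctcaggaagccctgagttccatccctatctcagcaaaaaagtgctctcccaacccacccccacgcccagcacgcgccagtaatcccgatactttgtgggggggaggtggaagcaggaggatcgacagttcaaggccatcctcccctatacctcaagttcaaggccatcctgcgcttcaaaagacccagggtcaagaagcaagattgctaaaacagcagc
Btg4: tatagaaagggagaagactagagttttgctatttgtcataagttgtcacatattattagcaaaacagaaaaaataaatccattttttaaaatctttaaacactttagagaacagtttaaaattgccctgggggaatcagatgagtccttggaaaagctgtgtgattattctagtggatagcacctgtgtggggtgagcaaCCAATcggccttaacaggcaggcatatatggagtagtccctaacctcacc
Dazl: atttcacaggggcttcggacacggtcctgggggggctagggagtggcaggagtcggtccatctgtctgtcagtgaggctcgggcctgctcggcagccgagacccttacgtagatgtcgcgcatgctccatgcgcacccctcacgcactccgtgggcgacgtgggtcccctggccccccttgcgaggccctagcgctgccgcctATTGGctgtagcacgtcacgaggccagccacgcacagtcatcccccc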

How the data were processed

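The authors aligned Smart-seq2 reads to mm10 with TopHat2 2.0.13 and deposited FPKM values from Cufflinks 2.2.1 (Cuffnorm), 1 column per library, and the annotation used is not given in the sources used here. Another 18 columns hold the authors' Cuffdiff results (log2 ratios with p and q) for 6 comparisons and were not used. FPKM values hold no counts, so the depth is known only through the estimated value of 1 fragment. The members and lists were chosen with earlier results of these data known.

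Groups were taken from the labels. limma 3.58.1 (R 4.3.3) was run on log2(FPKM + 1) with a variance trend, all 12 libraries together (8 residual degrees of freedom), for 6 contrasts, with Benjamini-Hochberg adjustment over 11233 genes, after testing the code on simulated data. Python 3.11.15, numpy 2.4.6, pandas 2.3.3 and scipy 1.17.1 were used for tables and exact permutation tests. No 2 libraries held identical values. Fragments behind a value were estimated from its FPKM, the transcript length and the smallest step between low values. From each pathway list, the 2 largest falls and rises called in MUT and in GcKO were named, besides the members, Dpagt1, Rpl19, Actb and, per member, the most correlated gene. Pabpn1l was named in addition, as called in AmcKO. Lists of oocyte, granulosa and cumulus, theca and stromal, and blood and immune markers were used. Coordinates and transcript ends came from GENCODE M21 (GRCm38) and promoters from RefSeq (GRCm38.p6). Alternatives were a pseudocount of 0.1, dropping the filter, a filter on a mean FPKM of 5, 3 other scalings, no variance trend, only the 2 groups compared, the label number as a block, an adjusted p under 0.01, a fold change over 2, ranks among genes above 0 in all libraries, and each library left out in turn.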

Additional observations from a re-analysis of the deposited data

How the results depend on the processing

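The 4 members called lower became 1 in MUT against WT, and 2 in GcKO against WT, with the same FPKM sum and with quantile normalization, which shift or reshape all genes. The 2 higher in MUT were 5 with the same sum, 1 without the variance trend, 0 at an adjusted p under 0.01 and 0 at a fold change over 2, and 0 to 1 with a library left out. The 4 higher in GcKO were 2 without the trend, 1 with only the 2 groups, 0 at the stricter p and 0 over 2-fold, and 1 to 3 with a library left out (1 without WT replicate 4 or GcKO replicate 1). In AmcKO against WT, the 0 higher became 1 with the same sum. Against AmcKO, the 4 lower in MUT were 2 with the same sum, quantile normalization, no trend, the stricter p or over 2-fold, and the 0 higher were 1 without a filter, 2 at a mean FPKM of at least 5, 4 with the same sum and 1 with quantile normalization. The 4 lower in GcKO were 2 with quantile normalization, and the 1 higher was 2 at a mean FPKM of at least 5, 4 with the same sum, 0 without the trend, with only the 2 groups, at the stricter p and over 2-fold, and 0 to 1 with a library left out. For settings other than the scalings, the share of all genes called is not given, so these member counts cannot be set against it. Btg4 reversed to 0.03 in MUT (quantile) and to 0.02 (same sum) and 0.20 (quantile) in GcKO. Why calls or directions changed with the settings was not tested. With the label number as a block, 0 members were called in AmcKO against WT and in GcKO against MUT, as without it. Correlations of same-numbered libraries were -0.06, 0.10 and -0.06 for MUT and GcKO and 0.08, 0.03 and -0.07 for WT and AmcKO over 4759 genes. These values do not show whether same-numbered libraries shared a batch. Of the other alternatives for single genes, ranks and motif counts, 462 were scored as the same, 47 lost a call, 10 gained one and 2 motif counts moved. A gene called in neither fit was scored as the same whatever its direction. Leaving out libraries in the ratios was chosen after seeing the data. It cannot turn a direction where the groups do not overlap, so it adds no check there. Zfp36l2 could not be tested without WT replicate 6.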
